A study of Pichia kudriavzevii with 6 samples.

Results

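Of 5464 genes measured in the yeast Pichia kudriavzevii, 86 had an mRNA level at least 1.7 times higher in both media that held succinic acid than in the medium with glucose alone, within the limits on level and size given below. Pichia kudriavzevii is an acid-tolerant yeast used to make organic acids such as succinic acid. All cells were of strain CY902 and lacked URA3, which encodes an enzyme of uracil synthesis and often serves as a selection marker. The cells had grown for 24 hours in glucose medium, were washed, moved into 50 mL of fresh SD medium set to pH 5.0 with NaOH, and shaken at 30 °C for 3 hours. The test medium held 2% succinic acid with no glucose (SoleS), 2% succinic acid with 2% glucose (GS), or 2% glucose alone (SoleG), and each medium had 2 libraries. Separate cultures for the 2 libraries of a medium are not stated in the labels, and the p-values given here reflect the spread between libraries, which may be technical.

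The 86 genes were chosen on the values themselves. Counts were scaled by the total of each library to a common depth (CPM), and the value of a gene in a medium was the mean CPM of its 2 libraries plus 1. A gene was a member when its GS value was at least 1.7 times the SoleG value and at least 10, and its SoleS value was at least 1.7 times but under 16 times the SoleG value. The levels of GS and SoleS against SoleG are therefore descriptions of what was chosen, and nothing is read from calls in these contrasts. The set was proposed as candidates for a response to succinic acid itself. The labels do not give the amount of NaOH in each medium, and an effect of succinic acid cannot be told apart from that of the base added with it.

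Many yeasts, Saccharomyces cerevisiae best known among them, repress genes for the use of other carbon sources while glucose is present, and release that repression when glucose runs out. Succinic acid is a dicarboxylic acid and an intermediate of the tricarboxylic acid cycle, where succinate dehydrogenase oxidises it to fumarate. Cells take up dicarboxylates through transporters in the plasma membrane, and in several yeasts such transporters are themselves subject to glucose repression. The GS medium sets the presence of succinic acid apart from the absence of glucose, which coincide in SoleS. The files name genes by an ID made of PK and a number and do not pair these IDs with gene names. None of the IDs (0) matched the reference gene table of assembly ASM305444v1, so no member could be given a name or a function, and transporter genes and URA3 could not be looked up. Members are described below by their coding length and their levels, and 4 of them by ID.

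Library totals were 6959188 and 6024768 counts in SoleS, 6744749 and 6269038 in GS, and 6657238 and 6648094 in SoleG. The lowest count of a member was 54 in SoleS, 48 in GS and 20 in SoleG, and all 86 members passed edgeR's filter on low counts. The 86 genes took 2.77% ± 0.05 of the counts in SoleS, 1.070% ± 0.004 in GS and 0.523% ± 0.011 in SoleG (SD, n = 2). The member with the highest level took much of this. Without it, the other 85 members took 1.83% ± 0.03 of the counts in SoleS, 0.804% ± 0.024 in GS and 0.377% ± 0.027 in SoleG.

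**Figure D1:**
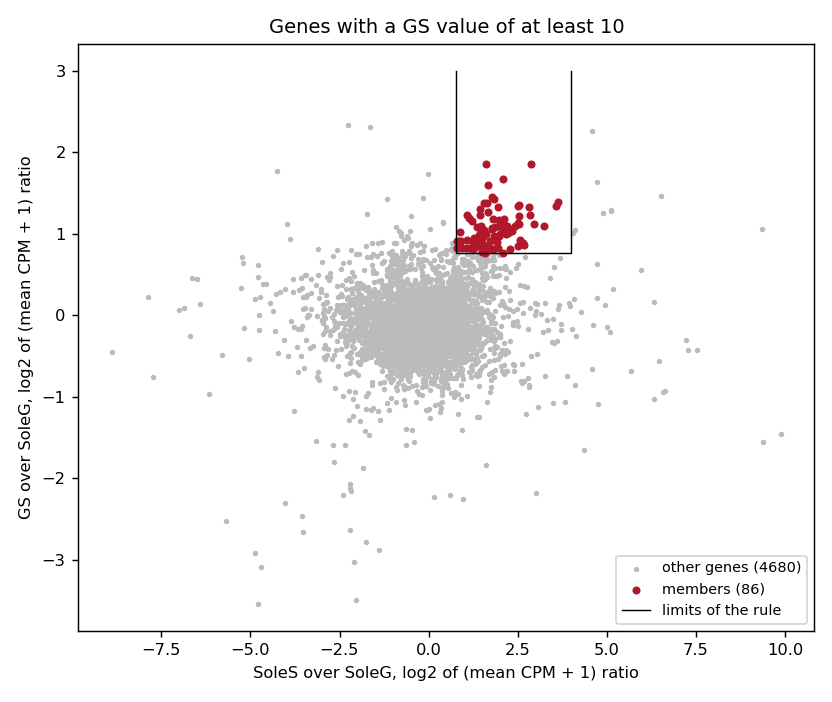
Each point is 1 of the 4766 genes with a GS value of at least 10; the x axis is the log2 ratio of SoleS over SoleG and the y axis the log2 ratio of GS over SoleG, both of mean CPM plus 1 from 2 libraries per medium. The 86 members (dark red) lie inside the box set by the limits of the rule, most of them near its lower edge.

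Members were raised in GS over a narrow range and in SoleS over a wide one. The ratio of GS over SoleG ran from 1.702 to 3.62 with a median of 2.04, and the ratio of SoleS over SoleG ran from 1.73 to 12.5 with a median of 3.45. Over the 4766 genes with a GS value of at least 10 these medians were 0.907 and 0.840. The highest ratios among those genes were 5.02 for GS over SoleG and 949 for SoleS over SoleG. The wider range in SoleS is therefore not particular to the members, and the rule itself bounds their ratios. Both libraries of GS, and both of SoleS, lay above both of SoleG in each of the 86 genes, where 22.2% and 35.1% of the 4766 genes did so. In edgeR's quasi-likelihood test all 86 were higher in GS than in SoleG, where 20% of all 5280 genes tested were, and all 86 were higher in SoleS than in SoleG, where 38.2% were (adjusted p below 0.05, by Benjamini-Hochberg). The rule used these contrasts, so these counts say nothing more than the choice itself.

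The limits cut through a continuous range of values. The members with the lowest GS over SoleG ratios, of 582 and 2784 bases, stood at 1.702 and 1.702, and the nearest genes left out, of 498 and 1485 bases, stood at 1.699 and 1.695. The lowest SoleS over SoleG ratios were 1.73 (1014 bases) and 1.75 (1635 bases), and the nearest genes left out had 1.61 (1377 bases) and 1.60 (1203 bases). At the upper limit the gap was wider, with 12.5 and 11.97 inside and 16.6 (1506 bases) and 17.3 (1332 bases) outside. The lowest GS values inside were 10.7 (1041 bases) and 11.0 (1704 bases), and those just outside were 9.98 (1194 bases) and 9.75 (537 bases). By missing 1 limit alone, 685 genes fell out on GS over SoleG, 51 on a low ratio of SoleS over SoleG, 10 on the GS value and 9 on the upper limit.

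Most members were expressed weakly in the glucose medium. The median level was 41.9 CPM in SoleS, 26.9 CPM in GS and 12.8 CPM in SoleG. At 100 CPM or more there were 19 members in SoleS, 14 in GS and 10 in SoleG. Per kilobase of coding length, 40 of the 86 lay above the median of all genes in SoleS, 26 in GS and 15 in SoleG. On that scale the median member had 36.7 CPM per kilobase in SoleS, 23.4 in GS and 9.62 in SoleG, against 40.2, 40.6 and 45.7 for all genes. A typical member was thus an uncommon transcript on glucose that stood near the middle of the transcriptome on succinic acid alone. The rule used the levels in every medium, so this describes what was chosen. The median of all genes also covers genes with a GS value under 10, which the rule left out. Coding lengths ran from 267 to 6432 bases with a median of 1491, and the median was 1298 bases over the 4766 genes with a GS value of at least 10.

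**Figure D2:**
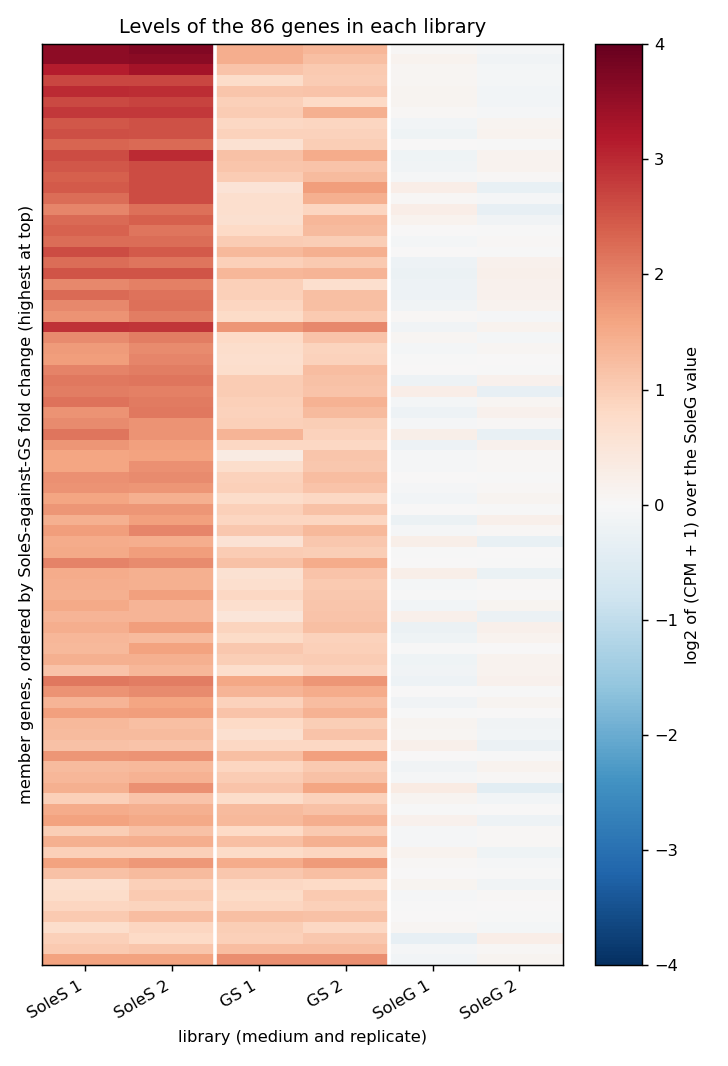
Each row is 1 of the 86 genes and each column 1 library; colour gives the log2 of CPM plus 1 over the gene's SoleG value, with rows ordered by the fold change of SoleS over GS. The SoleS columns darken towards the top, while the GS columns stay within a narrow range from top to bottom.

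The most abundant member was a gene of 507 bases. It had 9165 and 9503 CPM in the SoleS libraries, 2806 and 2523 CPM in the GS libraries, and 1575 and 1346 CPM in the SoleG libraries. The 3 media did not overlap, and the order was the same as for the median member. Per kilobase of coding length it ranked 6 among all genes in SoleS, 20 in GS and 36 in SoleG. It made up 33.7% ± 0.2 of the members' counts in SoleS, 24.9% ± 2.0 in GS and 27.9% ± 3.7 in SoleG (SD, n = 2). The gene of 2340 bases was the third by CPM among the members in SoleS and the second in GS and SoleG, at 2768 and 2550 CPM in SoleS, 1447 and 1463 CPM in GS, and 708 and 930 CPM in SoleG. Its media were also apart, with the widest gap between libraries within SoleG.

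The contrast that the rule did not threshold was SoleS against GS. Both media held succinic acid and differed in glucose by the labels, which do not give the amount of NaOH in each. This contrast is not free of the choice, since both media entered the rule. The limits keep SoleS over GS below 9.41 when GS over SoleG is at its minimum. In most members the level was higher again without glucose. Of the 86 genes, 68 were higher in SoleS than in GS, 1 was lower and 17 were not called (edgeR, adjusted p below 0.05 over all genes tested). Over all 5280 genes tested, 40% were higher and 39.4% lower. Both SoleS libraries lay above both GS libraries in 73 members and below them in 3, where 41% and 48.2% of the 4766 genes with a GS value of at least 10 did so. The median log2 fold change of the members was 0.74, against -0.0008 over all genes tested and -0.08 over those with a GS value of at least 10. Genes chosen for a high SoleS value lean towards SoleS in this contrast too. The 685 genes that missed the GS ratio alone all had a higher value in SoleS than in GS, which their limits require. The median ratio of SoleS over GS was 1.63 for the members and 2.46 for those genes, and no test was made of that difference since the rule sets it.

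**Figure D3:**
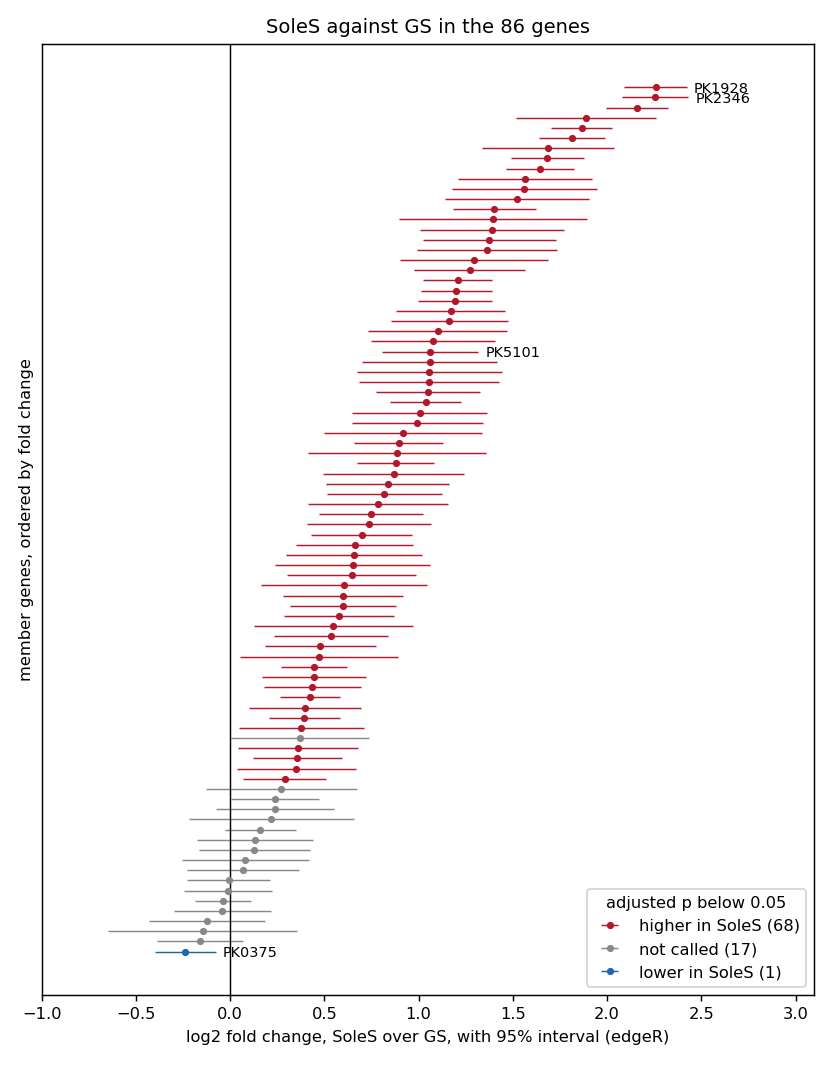
Each point is the log2 fold change of SoleS over GS of 1 of the 86 genes, with its 95% interval from edgeR on 2 libraries per medium, ordered from the highest at the top; red marks 68 genes higher in SoleS, grey 17 not called and blue 1 lower in SoleS. The fold changes form a continuous slope from 2.26 down to -0.24 with no gap that separates classes.

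In 33 members the level in SoleS was called higher and at least 2-fold that in GS, as it was in 18.4% of all genes tested. PK1928, of 1944 bases, had 5320 and 5721 CPM in SoleS, 1214 and 1106 CPM in GS, and 454 and 430 CPM in SoleG. Its levels in the 3 media did not overlap, and the larger step was the one between the media with succinic acid. The log2 fold change of SoleS over GS was 2.26 ± 0.08 (SE; edgeR adjusted p = 7.47e-18), and it was 1.54 ± 0.08 for GS over SoleG, which the rule used. PK2346, of 2796 bases, had nearly the same profile at a lower level, with 523 and 537 CPM in SoleS, 121 and 102 CPM in GS, and 47.5 and 39.3 CPM in SoleG. Its log2 fold change of SoleS over GS was 2.25 ± 0.09 (SE; edgeR adjusted p = 2.82e-17). These 2 genes had the highest SoleS over SoleG ratios of the set.

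Genes with large steps between GS and SoleS included abundant and rare transcripts. The gene of 738 bases had 861 and 974 CPM in SoleS, 213.5 and 199 CPM in GS, and 100.3 and 91.5 CPM in SoleG, with a log2 fold change of SoleS over GS of 2.16 ± 0.08 (SE; edgeR adjusted p = 1.61e-17). The gene of 1839 bases had 956 and 921 CPM in SoleS, 256 and 262 CPM in GS, and 128 and 109 CPM in SoleG. The 507-base gene described above had a log2 fold change of SoleS over GS of 1.82 ± 0.08 (SE; edgeR adjusted p = 1.74e-15). Among the 10 members with the highest SoleS level, the ratio of SoleS over GS ranged from 0.969 to 4.76 with a median of 2.69, and the median of the other 76 was 1.55. The SoleS level enters both quantities, so this is a description. Ordered by the SoleG level instead, the 29 lowest members had a median SoleS over GS ratio of 1.94, the middle 29 of 1.48 and the 28 highest of 1.54. Rare members with a large step were the gene of 1041 bases, with 35.8 and 35.7 CPM in SoleS, 8.75 and 10.7 CPM in GS, and 5.11 and 4.51 CPM in SoleG (log2 fold change of SoleS over GS of 1.89), and the gene of 327 bases, with a log2 fold change of 1.56.

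Shorter genes of this group showed the same order of media. The gene of 762 bases had 1055 and 1027 CPM in SoleS, 334 and 336 CPM in GS, and 158 and 195 CPM in SoleG, with a log2 fold change of SoleS over GS of 1.64 ± 0.09 (SE; edgeR adjusted p = 1.73e-14). The gene of 870 bases had 162 and 168 CPM in SoleS, 50.9 and 52.3 CPM in GS, and 26.0 and 30.2 CPM in SoleG. The gene of 735 bases had 209 and 206 CPM in SoleS, 90.3 and 92.2 CPM in GS, and 29.9 and 40.8 CPM in SoleG. In all 3 the libraries of each medium lay closer to each other than to those of the next medium. The first and second had their larger step between GS and SoleS, with log2 fold changes of SoleS over GS of 1.64 and 1.68 and of GS over SoleG of 1.07 and 1.02. For the gene of 735 bases these were 1.19 and 1.51, so its larger step was the one between SoleG and GS.

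PK5101, of 942 bases, combined a large step in GS with another in SoleS. It had 71.3 and 69.9 CPM in SoleS, 32.2 and 35.9 CPM in GS, and 7.81 and 9.63 CPM in SoleG. Each medium stood clear of the next. Its GS over SoleG ratio of 3.605 was the second highest of the members, and its log2 fold change of SoleS over GS was 1.06 ± 0.12 (SE; edgeR adjusted p = 3.55e-08).

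A further 35 members were called higher in SoleS than in GS by less than 2-fold. Among all 5280 genes tested, 40% were called higher, and 18.4% were called higher by at least 2-fold. The 40% includes the 18.4%, so the share to set beside these 35 is only what remains between them. The longest member, of 6432 bases, had 711 and 717 CPM in SoleS, 523 and 532 CPM in GS, and 237 and 293 CPM in SoleG, a log2 fold change of SoleS over GS of 0.44 ± 0.08 (SE; edgeR adjusted p = 4.86e-05). The gene of 945 bases had 185 and 199 CPM in SoleS, 137 and 150.3 CPM in GS, and 52.7 and 52.5 CPM in SoleG. In both genes the step between GS and SoleG was the larger one, and the difference between the media with succinic acid was the smaller one. The gene of 1827 bases, with the third highest GS over SoleG ratio at 3.18, had 64.4 and 61.6 CPM in SoleS, 43.3 and 50.4 CPM in GS, and 12.02 and 16.1 CPM in SoleG.

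**Figure D4:**
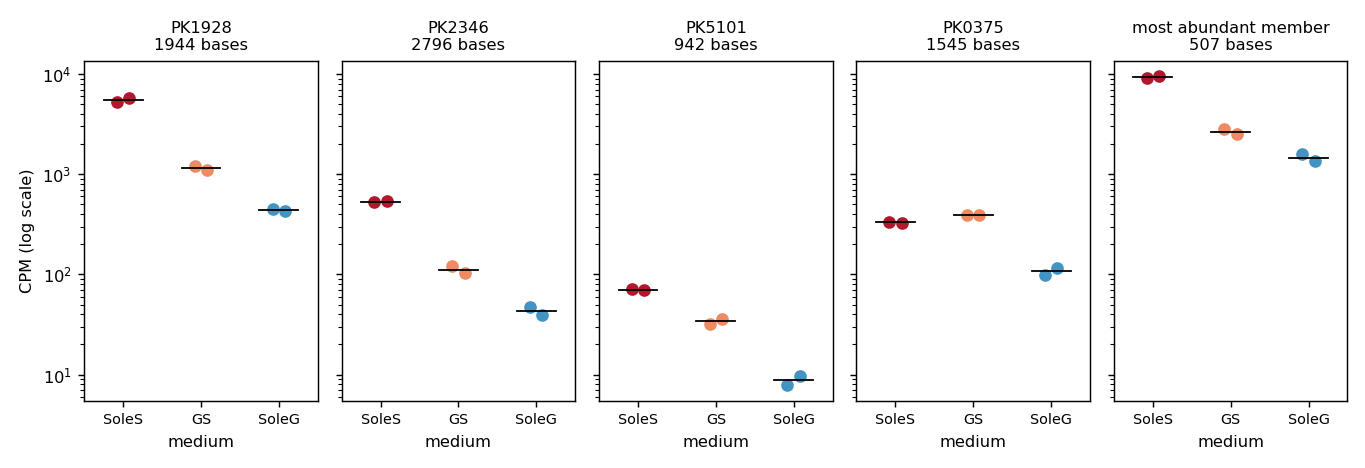
Points are the CPM of single libraries on a log axis and bars the mean of 2 libraries, in SoleS, GS and SoleG, for PK1928, PK2346, PK5101, PK0375 and the most abundant member, of 507 bases. PK0375 alone among these 5 has GS libraries above its SoleS libraries.

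PK0375, of 1545 bases, was the one member called lower in SoleS than in GS. It had 331 and 329 CPM in SoleS, 389 and 393 CPM in GS, and 98.4 and 116 CPM in SoleG. The GS libraries lay above the SoleS libraries, and both lay well above SoleG. Its GS over SoleG ratio of 3.62 was the highest of the members. The log2 fold change of SoleS over GS was -0.24 ± 0.08 (SE; edgeR adjusted p = 0.00768). This call was lost with upper-quartile scaling (-0.10) and in limma fits to the deposited FPKM values (-0.19), with adjusted p up to 0.227 over the settings tried. The deposited FPKM values of GS replicate 2 are 0.929 times those from its own total, which moves SoleS over GS upwards. The part of this in the lost call was not tested.

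For 17 members (19.8%) no difference between SoleS and GS was called. Over all 5280 genes tested, 40% were called higher and 39.4% lower, which leaves a similar share not called. A p that misses the threshold does not show equal levels, and the intervals give the range left. In 5 of the 17 both SoleS libraries lay above both GS libraries, and in 2 of the 17 both lay below. Among the 4766 genes with a GS value of at least 10, called or not, 41% and 48.2% did so. The shares among all genes not called were not computed. The genes of 531 and 2187 bases had 95% intervals that began just above 0, at 0.005 and 0.006, with edgeR adjusted p = 0.0570 and 0.0579. The 95% intervals of the log2 fold change lay within 0.5 of 0 in 12 of the 17 and within 1 in all 17, and the widest bounds were -0.65 and 0.74. The best measured was the gene of 3138 bases, with 603 and 614 CPM in SoleS, 607 and 649 CPM in GS, and 330.02 and 338 CPM in SoleG. Its log2 fold change of SoleS over GS was -0.04, with an interval of -0.19 to 0.11. The SoleS and GS libraries overlapped, and both pairs were above the SoleG pair.

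Other members of this kind were rarer transcripts. The gene of 1635 bases had 68.5 and 83.8 CPM in SoleS, 77.2 and 76.2 CPM in GS, and 46.9 and 39.1 CPM in SoleG, with an interval of -0.23 to 0.21 for SoleS over GS. The gene of 1158 bases had 23.1 and 25.6 CPM in SoleS, 21.2 and 25.04 CPM in GS, and 7.21 and 6.77 CPM in SoleG. Its GS over SoleG ratio of 3.02 was the highest of the 17, and its interval for SoleS over GS was -0.26 to 0.42. The 17 genes had a median of 31.1 CPM in SoleS, 29.8 CPM in GS and 15.03 CPM in SoleG. The 68 genes higher in SoleS had medians of 43.2, 25.2 and 12.4 CPM in the same media. The classes thus had similar levels in GS, and their GS over SoleG ratios also had similar medians, at 2.03 for the 17 and 2.04 for the 68.

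The 2 GS libraries did not stand at the same level for these genes. GS replicate 2 was above GS replicate 1 in 72 of the 86 members (83.7%), against 53.1% of the 4766 genes with a GS value of at least 10. The median log2 difference was 0.19 in the members and 0.01 in those genes. In SoleS, replicate 2 was above replicate 1 in 54 of the 86 (62.8%), against 52.8% of those genes. In SoleG it was above in 47 (54.7%), against 40.7%. The gene of 1254 bases was the plainest case, at 28.9 and 32.7 CPM in SoleS, 7.12 and 16.6 CPM in GS, and 5.56 and 3.46 CPM in SoleG. The part of this library in the results was measured by leaving it out. Without GS replicate 2 the rule chose 68 genes, 64 of them among the 86, and without GS replicate 1 it chose 114, of which 84 were among the 86. With the 86 kept as chosen, the count called higher in SoleS than in GS was 69 without GS replicate 2 and 55 without GS replicate 1. With the members chosen anew, it was 49 of 68 and 75 of 114.

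To read the response in libraries that had no part in the choice, the rule was applied to 1 library of each medium and the genes were then read in the other 3 libraries. Replicate 1 of the 3 media chose 82 genes. In replicate 2 all 82 had both ratios above 1, where 18.6% of all genes had, and 57 (69.5%) met the whole rule again, where 2.31% of all genes met it there. The median of their GS over SoleG ratios was 2.07 where they were chosen and 1.99 where they were read, and that of SoleS over SoleG was 3.35 and 3.38. Replicate 2 chose 126 genes, of which 116 had both ratios above 1 in replicate 1, where 14.8% of all genes had, and 57 (45.2%) met the whole rule, where 1.5% of all genes did. For these the median GS over SoleG ratio was 2.05 where chosen and 1.64 where read, and that of SoleS over SoleG was 3.32 and 3.01. The 57 genes chosen by both replicates were all among the 86. This follows from averaging, since a limit met in both replicates is met by their mean. For most genes the direction of both ratios carried over to the unused libraries. The size of the GS ratio did so less for genes chosen in replicate 2. Having 1 library per medium on each side, this reading has no test, and separate cultures for the libraries are not stated.

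**Figure D5:**
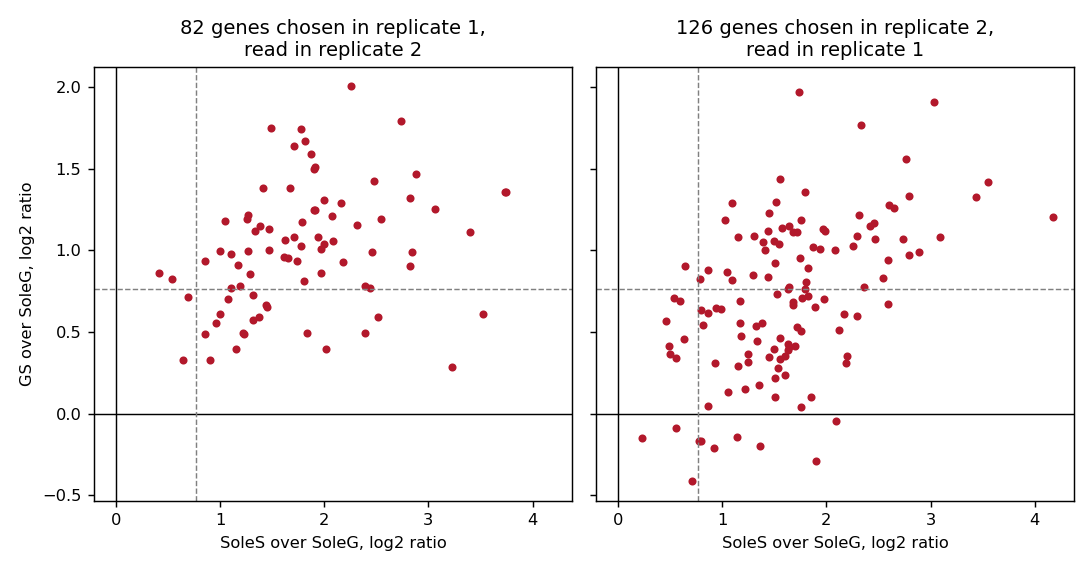
Each point is a gene chosen in 1 replicate of the 3 media and read in the other, with the log2 ratio of SoleS over SoleG on the x axis and of GS over SoleG on the y axis; dashed lines mark the ratio of 1.7 and solid lines equal levels. All 82 genes chosen in replicate 1 lie above both solid lines in replicate 2, and 10 of the 126 genes chosen in replicate 2 fall below a GS over SoleG ratio of 1 in replicate 1.

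Among the 86 members, 2 pairs had consecutive ID numbers, close to the 1.34 pairs that 86 numbers drawn at random from 5464 would give on average. Whether ID order follows the genome is not given in the sources used here. The first pair, of 1821 and 1083 bases, was not called between SoleS and GS. The gene of 1821 bases had 10.1 and 8.96 CPM in SoleS, 10.1 and 11.2 CPM in GS, and 3.61 and 5.87 CPM in SoleG. The gene of 1083 bases had 51.4 and 54.4 CPM in SoleS, 59.2 and 59.7 CPM in GS, and 23.6 and 25.7 CPM in SoleG. Both thus had their highest mean in GS. The second pair was the 6432-base gene and one of 1788 bases, which had 40.8 and 47.5 CPM in SoleS, 29.8 and 37.5 CPM in GS, and 13.8 and 16.5 CPM in SoleG. Both rose in SoleS over GS by similar amounts, with log2 fold changes of 0.44 ± 0.08 and 0.40 ± 0.14 (SE; edgeR adjusted p = 4.86e-05 and 0.0147). Of the genes with IDs on either side of the pairs, the one after the second pair, of 5064 bases, had ratios of 1.61 for GS over SoleG and 1.93 for SoleS over SoleG. The one before it, of 960 bases, had 0.857 and 1.35. On either side of the first pair, the gene of 426 bases had 1.30 and 0.935 and the gene of 783 bases had 1.07 and 2.01, so all 4 missed the rule.

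The neighbouring sets show where the 86 differ by the limits that define them. The 9 genes that passed all limits but the upper one had SoleS over GS ratios of 5.00 to 315 and a median of 5689 CPM in SoleS. The 51 genes raised in GS but short of the SoleS ratio had a median of 99.7 CPM in SoleS, 477 CPM in GS and 255.0 CPM in SoleG, and 40 of them were lower in SoleS than in SoleG. Genes with a GS over SoleG ratio of at least 1.7 thus ranged from lower to far higher levels on succinic acid alone, and the 86 are the middle of that range by the limits set.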

How the data were processed

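RNA was sequenced in 6 libraries, 2 for each of 3 media. Reads were aligned with Bowtie2 2.2.5, per the submitters' processing notes. How reads were counted, on which strand and against which genome build and annotation is not given in the sources used here, so reads shared by similar or overlapping genes may have been split. Per the file headers, each file deposited by the authors holds a raw count, an FPKM value and a coding length for 5464 genes. The FPKM deposited by the authors follows from the count, coding length and library total, except in GS replicate 2, where the total of GS replicate 1 was used. Values there are 0.929 times those from its own total, and all main results use counts. No column belonged to another sample.

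The rule used CPM from total counts. Tests used edgeR 4.0.16 in R 4.3.3 (filterByExpr, which left 5280 genes; TMM factors of 0.957 to 1.08; glmQLFit and glmQLFTest on all 6 libraries), with Benjamini-Hochberg adjustment over all genes tested, and were checked on simulated counts. A rank or permutation test of 2 against 2 libraries cannot pass 0.05, so p-values come from models. Those of the main results come from this edgeR fit. A standard error is the log2 fold change divided by the square root of F. Alternatives used limma 3.58.1 and DESeq2 1.42.0.

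Members and tests were chosen with earlier results of these data known. Genes given by ID are the 2 with the highest ratio of each kind in the rule and the up to 2 called most strongly in each direction between SoleS and GS; other genes singled out were picked after their values were seen. No gene list could be tested, since IDs carry no names. Sequences of the genes were not used here.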

Additional observations from a re-analysis of the deposited data

How the results depend on the processing

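The number of members depended most on the scaling and the fold limit. It was 86 as given, 137 with TMM-scaled CPM, 146 with a fold of 1.5, 45 with a fold of 2 and 55 with 5 added to the CPM. Under TMM all 86 remained members, since those factors raise GS and SoleS against SoleG. With a library left out the number ran from 68 to 114, and in the other 5 settings from 60 to 97. The members called in SoleS against SoleG and in GS against SoleG were fixed by the choice, at 86 and 83 to 86 over the settings, and say nothing of stability. The count higher in SoleS than in GS was 55 to 70 with a library left out and the members kept, 49 or 75 with members re-chosen without GS replicate 2 or 1 (a setting added after the data were seen), and 63 to 72 otherwise, lowest with DESeq2. The count lower in SoleS was 1, and 0 with upper-quartile factors and with the 3 limma fits on FPKM, whose GS replicate 2 values are too low. PK1928, PK2346 and PK5101 kept their direction and call in all 18 settings. Upper-quartile factors moved the median log2 fold change of all genes in SoleS against GS to 0.14, and total counts moved it to -0.15 in GS against SoleG and -0.18 in SoleS against SoleG. Where replicate 2 rather than 1 chose genes, 45.2% rather than 69.5% met the rule again. The replicate block gave 68 members higher in SoleS and 1 lower, and no call of a named gene changed. Differences between replicates correlated at 0.05, -0.10 and -0.04 across genes between media. These differences include counting noise, so the correlations cannot decide whether replicate numbers mark pairs of libraries. With 2 libraries a group and as few as 20 counts in SoleG, small differences of the rarer members were not detectable; a lone library left in a group was assumed to vary like the others.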
